A study of Homo sapiens with 12 samples.

Results

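The untreated cells of a tRNA-Glu over-expressing line were compared with untreated mock cells, to ask which transcripts already differed between the lines before transcription was blocked. The comparison used 4 of the 12 arrays of the series, 2 of the tRNA-Glu line and 2 of the mock line, chosen by line and by time of α-amanitin as labelled. Both lines derive from MDA-MB-231, an established cell line from a human breast cancer that lacks the hormone receptors and HER2. The tRNA-Glu cells stably over-expressed the locus chr1.trna5 (Glu-TTC), and the mock cells are labelled mock, with no further description. Another line, tRNA-Arg, over-expressed chr16.trna1 (Arg-CCG). Each line was also collected after 9 h of α-amanitin at 10 µg/mL, and the 0 h arrays are the untreated state. Whether a line is 1 clone or a pool, and how it was made, is not stated in the labels. Replicates are numbered 1 and 2 without a word on separate cultures. The p-values therefore rest on the spread between such replicates, pooled over the groups of the series, and this spread may be technical.

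Transfer RNAs bring amino acids to the ribosome and read the codons of mRNAs through their anticodon, so the supply of one tRNA can bear on how mRNAs rich in its codons are translated and how long they last. The tRNA of this line carries the anticodon UUC and serves glutamate codons. α-Amanitin binds RNA polymerase II and stops the synthesis of mRNA. The steady-state level at 0 h depends on synthesis as well as decay, whereas the loss over hours of α-amanitin depends mainly on decay. Signals came from bulk RNA, so fewer cells with a transcript and less transcript per cell cannot be told apart.

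Illumina expression BeadChips were used, which report how brightly each probe captures labelled RNA. The probes were not paired with genes here, so they are given by identifier, no gene or pathway is named, and the markers of the cell line and the over-expressed tRNA were not read. The median raw intensity was between 65 and 69.6 on the 0 h arrays. The array's own median is used below as a floor: a probe at or under it is not above background there. Of 47231 probes, 25456 were tested, those that exceeded the floor in both replicates of any of the 6 groups of line and time. Signals below are log2 values after background correction and quantile normalization between arrays, unless called raw, and the number of arrays limits their precision.

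One of the 4 arrays lay apart. The second principal component of the tested signals of all 12 arrays held 8.82% of the variance. It placed tRNA-Glu replicate 1 at -30.1, tRNA-Glu replicate 2 at 3.42, mock replicate 1 at 10.1 and mock replicate 2 at 0.903. On this component the mock arrays of 9 h lay at -17.9 and -14.4, and the tRNA-Glu arrays of 9 h at 10.9 and 12.7. The 75th percentile of raw intensity was 224.55 on tRNA-Glu replicate 1, against 172.4 to 194.7 on the other 0 h arrays of the 3 lines. The 2 tRNA-Glu arrays also differed from each other more than the replicates of any other group. The SD over probes of the difference between replicates was 0.286 for tRNA-Glu at 0 h and 0.186 to 0.226 for the other 5 groups. A replicate difference of over 1 on the log2 scale was found for 69 probes in tRNA-Glu at 0 h, 21 in mock at 0 h, and 5 to 24 in the remaining groups. When probes were ranked by mean signal and split into 4 equal bins, the gap between the 2 tRNA-Glu arrays was widest in the bin below the brightest, with a median size of 0.215, where the mock replicates had 0.141. In the dimmest bin these medians were 0.148 and 0.156. Across the tested probes the difference of tRNA-Glu replicate 1 from replicate 2 correlated at 0.21 (Pearson) with the change over 9 h of α-amanitin in mock cells and at 0.127 with that in tRNA-Arg cells. These describe 25456 probes read on the same arrays, which are not independent, and the part of this pattern in the results was not tested. Because of this array, results are given below with and without it.

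The probe with the largest rise in tRNA-Glu cells was ILMN_1688335. Its raw intensity was 103.5 and 83.3 on the mock arrays and 1113.3 and 791.1 on the tRNA-Glu arrays. On the normalized log2 scale the mock arrays read 6.19 and 5.97 and the tRNA-Glu arrays 9.69 and 9.42. Both tRNA-Glu arrays lay far above both mock arrays, and the gap between replicates was small beside the gap between lines. The log2 difference was 3.48 (SE 0.13, limma adjusted p = 1.55e-08), an 11.1-fold rise.

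The second probe that rose, ILMN_2078430, had raw intensities of 66.9 and 64.1 on the mock arrays, both under the floor. It read 367.4 and 326.3 on the tRNA-Glu arrays, or 7.94 and 8.03 on the normalized log2 scale. Since mock cells gave only a bound, the rise was at least 5.71-fold (limma adjusted p = 3.78e-07).

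The probe with the largest fall was ILMN_2088876. Its raw intensity was 983.1 and 845.5 in mock cells and 156.7 and 151.6 in tRNA-Glu cells. Its normalized log2 signal was 9.66 on each mock array, and 6.65 and 6.85 on the tRNA-Glu arrays. The groups did not overlap, and the log2 difference was -2.91 (SE 0.12, limma adjusted p = 5.15e-08), which is 7.52-fold lower. ILMN_1775235 fell from 328.9 and 284.1 raw in mock cells to 97.9 and 90.2 in tRNA-Glu cells, with a log2 difference of -1.96 (SE 0.13, limma adjusted p = 6.1e-06). Its tRNA-Glu arrays, at 6.01 and 6.04, differed by less than those of any other of the 4 probes.

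The same 4 probes separated the lines in the arrays taken after 9 h. ILMN_1688335 stood at 9.94 and 9.82 in tRNA-Glu cells against 6.2 and 6.15 in mock cells, and ILMN_2078430 at 8.75 and 8.98 against 5.46 and 5.42. ILMN_2088876 stood at 7.29 and 7.33 in tRNA-Glu cells against 10.0 and 10.3 in mock cells. ILMN_1775235 stood at 5.24 and 5.57, the first of these under the floor, against 7.5 and 7.4. In none of these did the 2 lines overlap. Over all tested probes at 9 h, 25.8% did not overlap with tRNA-Glu higher and 27.7% with tRNA-Glu lower. The tRNA-Glu minus mock difference at 9 h was 3.70 for ILMN_1688335, -2.85 for ILMN_2088876 and -2.04 for ILMN_1775235. For ILMN_2078430 mock cells were again under the floor on both arrays, so its rise at 9 h was at least 10.5-fold. The test of 0 h minus 9 h did not pass for ILMN_1688335, ILMN_2088876 or ILMN_1775235 (limma adjusted p of 0.544, 0.894 and 0.848). For ILMN_2078430, with mock under the floor at both times, it came nearer to the threshold without passing (limma adjusted p = 0.0819).

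**Figure D1:**
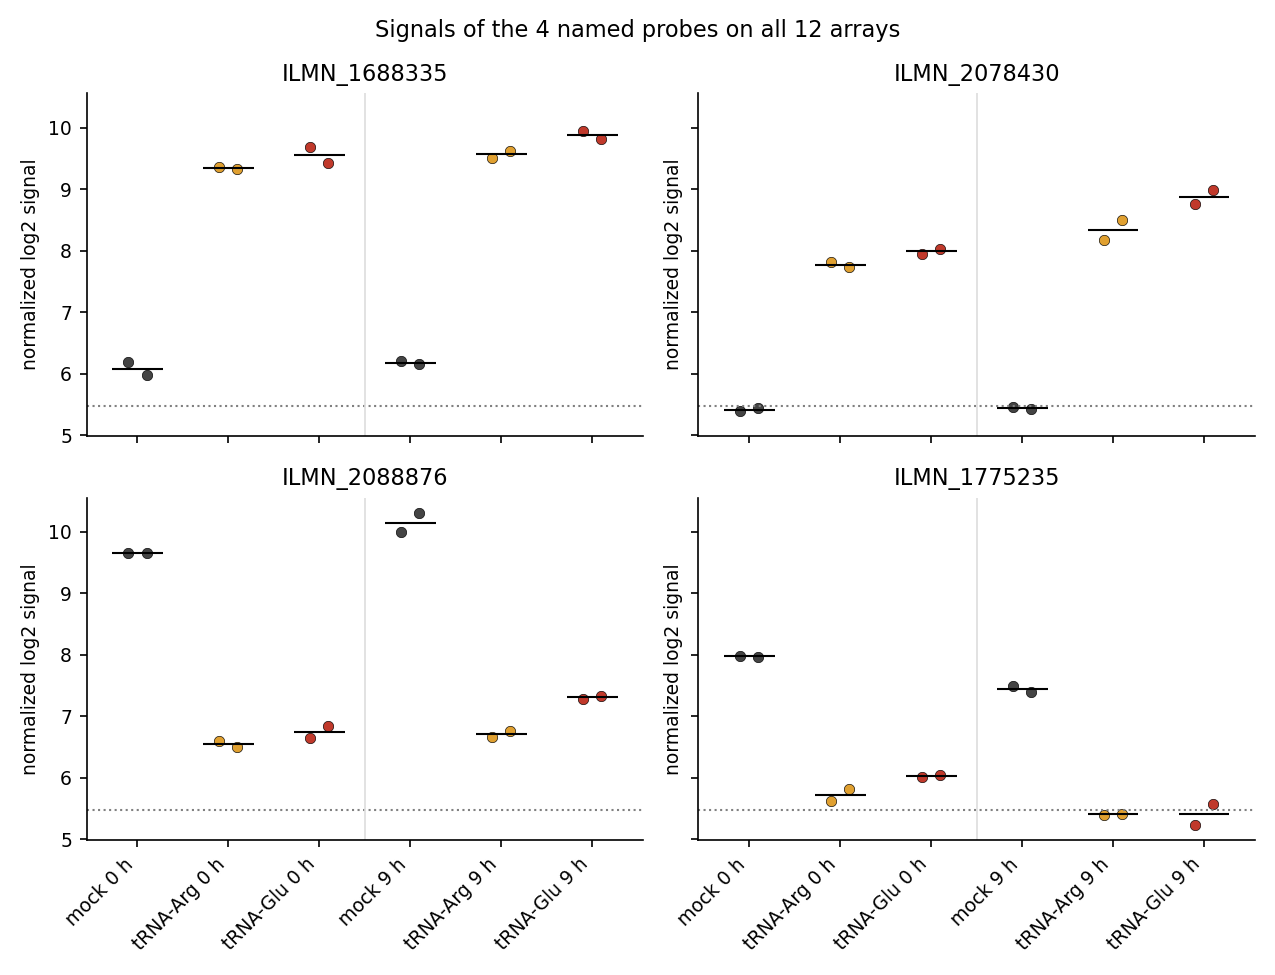
Normalized log2 signal (vertical axis) of the 4 named probes on all 12 arrays, by line and time (horizontal axis); points are arrays, short bars are the means of 2 arrays, and the dotted line is the floor. In every panel both tRNA lines sit on the same side of mock at 0 h and at 9 h, with 3.48 between the tRNA-Glu and mock means for ILMN_1688335 at 0 h.

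Over all tested probes, limma called 203 at an adjusted p of 0.05, which is 0.797% of 25456. Of these 118 were higher in tRNA-Glu cells (0.464% of the tested probes) and 85 were lower (0.334%). The fit pooled the spread of all 6 groups. The count was 15 with only the 4 arrays compared, 47 with only the 0 h arrays and 48 with array weights. With 2 arrays per group, deviations from the group mean are equal in size, so these weights had to be equal within each group. They were 0.51 for both tRNA-Glu arrays and 0.915 for both mock arrays at 0 h. They therefore could not set tRNA-Glu replicate 1 apart from replicate 2. With median scaling, which moved the median of all tested probes from -0.00877 to 0.0901, 329 probes were called higher and 56 lower. Most called differences were modest. The median log2 difference was 0.783 for the higher probes and -0.733 for the lower ones, and the smallest were 0.515 and -0.502. A change of over 2-fold was seen for 21 higher and 10 lower probes. The median over all tested probes was -0.00877, and the central 95% of them lay between -0.424 and 0.492. The 95% confidence interval of a probe's difference had a median half-width of 0.30 on the log2 scale. With 2 arrays per line, smaller differences of a typical single probe could thus not be told from 0. This interval is not adjusted for the number of probes, so 0.30 is not the limit of what was called. After adjustment larger differences also went uncalled, among them one of 0.791 in size and 13 of over 2-fold. Before adjustment, 4029 probes (15.8% of those tested) had p under 0.05.

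In each of the 203 called probes the 2 tRNA-Glu arrays did not overlap the 2 mock arrays, a state found in 41.7% of all tested probes. The last called probe had an adjusted p of 0.0496 and the first not called 0.0507, with log2 differences of 0.632 and 0.791 in size, so the threshold fell in a dense part of the ranking. Called probes were least frequent among dim ones. From the dimmest to the brightest of the 4 bins of 6364 probes, 17 (0.267%), 45 (0.707%), 85 (1.34%) and 56 (0.88%) were called.

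Some called probes were above background in only one of tRNA-Glu and mock cells. Of the 118 higher probes, 23 were above the floor on both tRNA-Glu arrays and on neither mock array, ILMN_2078430 among them, and 91 were above it on all 4 arrays. Of the 85 lower probes, 4 were above the floor on both mock arrays and on neither tRNA-Glu array, and 80 on all 4. For those with one line under the floor, the size of the change is only a bound. With these probes at their bound, the median log2 difference was 0.703 for the higher and -0.73 for the lower probes.

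**Figure D2:**
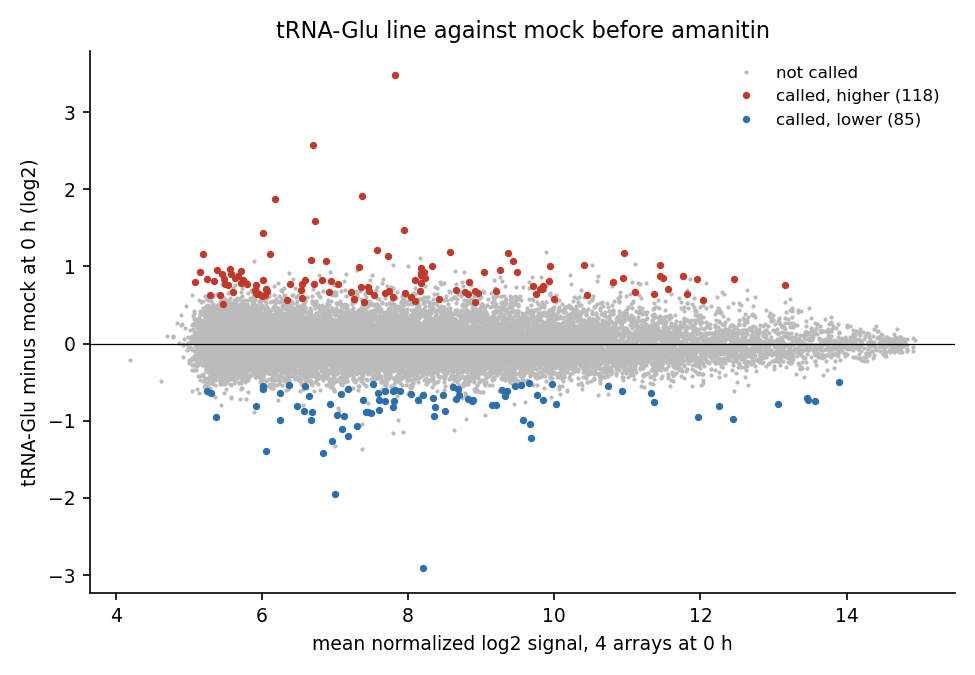
Difference between tRNA-Glu and mock cells at 0 h (vertical axis, log2) against the mean normalized log2 signal of the 4 arrays (horizontal axis) for 25456 tested probes; red and blue points are the 118 probes called higher and the 85 called lower. A few probes stand far out, up to 3.48 and down to -2.91, and most called probes lie at the edge of the cloud of uncalled ones.

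The 2 tRNA-Glu arrays did not contribute alike to the calls. Measured against the mock mean, the higher probes had a median log2 difference of 0.841 on tRNA-Glu replicate 1 and 0.683 on replicate 2. The lower probes had medians of -0.782 and -0.679. The difference was larger in size on replicate 1 for 82 of the 118 higher and 63 of the 85 lower probes. It was over 1.5 times as large on replicate 1 as on replicate 2 for 31 higher and 14 lower probes, and the reverse held for 1 and 2. Over all tested probes the SD of the difference from the mock mean was 0.324 for replicate 1 and 0.215 for replicate 2. A further 13 probes had mean differences of over 2-fold but were not called, and 12 of these were larger in size on replicate 1.

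**Figure D3:**
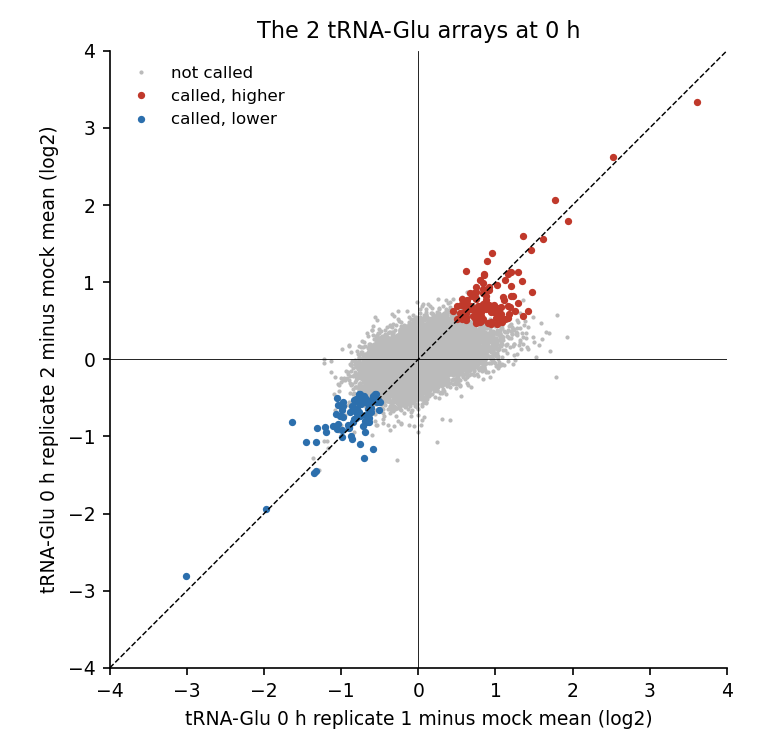
Difference from the mock mean at 0 h on tRNA-Glu replicate 2 (vertical axis, log2) against that on tRNA-Glu replicate 1 (horizontal axis, log2) for the tested probes, with the line of equal values dashed. The cloud is wider along replicate 1, with an SD of 0.324 against 0.215, and the probes farthest out lie near the dashed line.

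The count of called probes depended on each of the 4 arrays. Without tRNA-Glu replicate 1, the array that lay apart, 49 probes were called (28 higher, 21 lower), of which 46 were among the 203. Without tRNA-Glu replicate 2, so that replicate 1 alone stood for the line, 2413 were called, and 201 of the 203 were among them. Without mock replicate 1 there were 47 calls and without mock replicate 2 there were 68, of which 44 and 51 were among the 203. In these fits the line left with 1 array is assumed to vary like the other groups. A set of 28 probes, 16 higher and 12 lower, was called with all arrays and without each of the 4 in turn. The named probes ILMN_1688335, ILMN_2078430, ILMN_2088876 and ILMN_1775235 passed the threshold in each of these fits. In the set of 28 the smallest difference was 1.68-fold, the median 2.26-fold, and 20 exceeded 2-fold. This set was drawn from the results and carries no test of its own.

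The arrays taken at 9 h hold none of the 0 h arrays, and served as a check of direction. In the same fit they differed between tRNA-Glu and mock cells for 397 higher probes (1.56% of those tested) and 252 lower ones (0.99%). Of the 118 probes higher at 0 h, 92 (78.0%) were higher in tRNA-Glu cells at 9 h as well, where 48.8% of all tested probes were. Of the 85 lower probes, 75 (88.2%) were lower at 9 h, where 51.2% of all were. At 9 h 45 of the higher and 30 of the lower probes were called again in the same direction. Both tests of a probe use the same pooled spread, so a repeat call is not independent of the call at 0 h. These 75 make up 36.9% of the 0 h calls and 11.6% of the 9 h calls. The differences were mostly smaller after α-amanitin. Their medians at 9 h were 0.399 for the higher and -0.417 for the lower probes, and 90 and 76 of them were closer to 0 than at 0 h or had changed sign. The probes had been chosen by their difference at 0 h, so its size there is not independent of the choice. The 31 probes past 2-fold kept their direction at 9 h in 30 cases, and 22 of them were called again.

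Set against the 9 h arrays, the 2 tRNA-Glu arrays of 0 h differed, but the lists of calls behind the shares below differ in length. Short lists from fits that keep all arrays also had high shares. The share was 93.8% of 48 calls with array weights and 93.2% of 59 calls without a filter. The part of list length in the shares was not tested. With replicate 1 left out, 48 of 49 called probes had the same direction at 9 h (98.0%). With replicate 2 left out, this share was 42.2% of 2413. Without mock replicate 1 it was 93.6% and without mock replicate 2 it was 70.6%. All 28 probes that were called in each of these fits kept their direction at 9 h, and 26 of them were called there. Across all 25456 tested probes the tRNA-Glu minus mock differences at 0 h and 9 h correlated at 0.0352 (Pearson). The correlation was -0.0676 for tRNA-Glu replicate 1 taken alone and 0.178 for replicate 2. These 3 correlations run over probes of the same arrays and carry no test. On the second principal component, tRNA-Glu replicate 1 of 0 h lay on the side of the mock arrays of 9 h. The tRNA-Glu arrays of 9 h lay on the other side. How far this bears on the shares and correlations for replicate 1 was not tested.

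Of the 118 probes higher at 0 h, 1 was called lower at 9 h, where 0.99% of all tested probes were. Of the 85 lower probes, 1 was called higher at 9 h, where 1.56% of all were. ILMN_1787064 and ILMN_3268697, named after their values were seen, were the only probes called at 0 h and called the other way at 9 h. ILMN_1787064 read 6.5 and 6.02 in tRNA-Glu cells and 5.63 and 5.5 in mock cells at 0 h, but 5.44 and 5.37 against 6.1 and 6.02 at 9 h. Both tRNA-Glu arrays of 9 h were under the floor for it, so it was at least 1.5-fold lower there. ILMN_3268697 read 6.46 and 6.71 in tRNA-Glu cells against 7.78 and 7.8 in mock cells at 0 h.

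**Figure D4:**
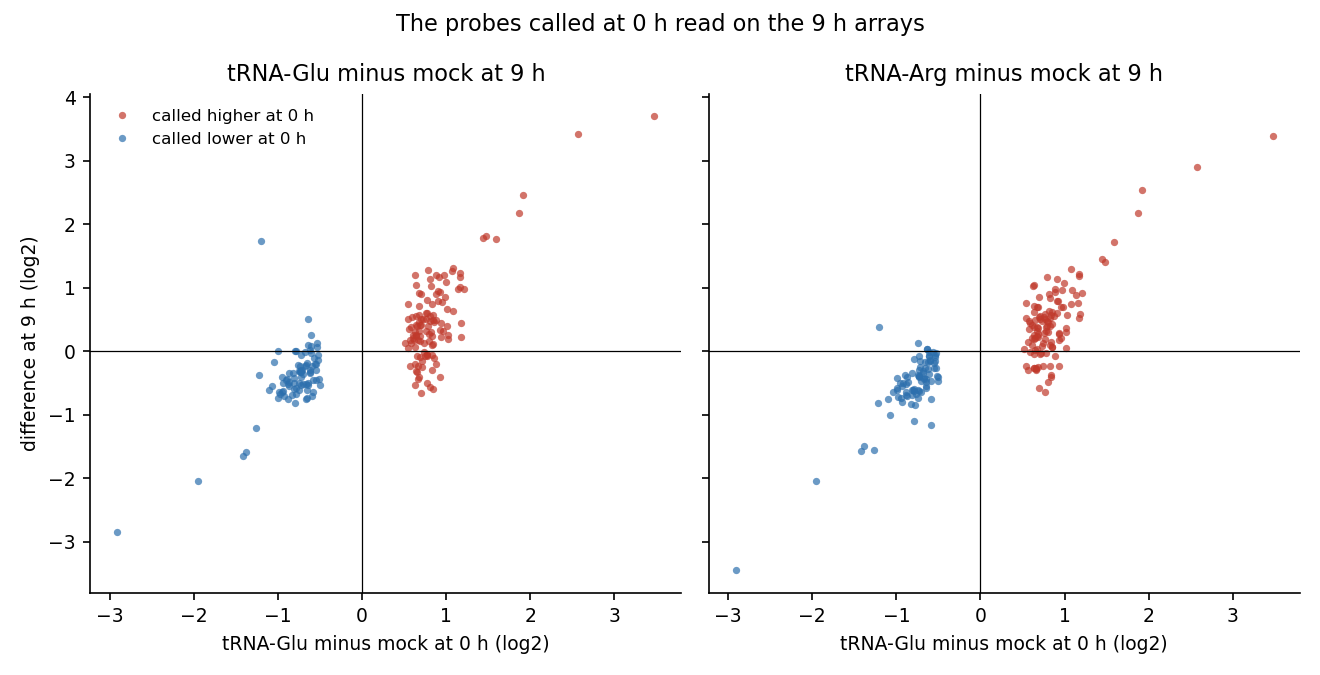
Difference at 9 h (vertical axes, log2) against the tRNA-Glu minus mock difference at 0 h (horizontal axes, log2) for the 203 probes called at 0 h, with tRNA-Glu minus mock at 9 h on the left and tRNA-Arg minus mock at 9 h on the right. Most points lie in the lower left and upper right, 167 of 203 on the left (82.3%).

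The tRNA-Arg line was used to see whether these differences set the tRNA-Glu line apart from another line made with a tRNA. Compared directly at 0 h, tRNA-Glu and tRNA-Arg cells differed for 0 of 25456 probes by limma (0%), with a smallest adjusted p of 0.166. Before adjustment, 2420 probes (9.51% of those tested) had p under 0.05. The interval of a single probe's difference was as wide as in the comparison with mock, at a median half-width of 0.30. Smaller differences between the tRNA lines were thus not detectable. This interval is not adjusted for the number of probes, and after adjustment larger differences also went uncalled. The central 95% of the differences lay between -0.352 and 0.406. The count of 0 calls therefore leaves room for differences above 0.30. This count rested on tRNA-Glu replicate 2: without it, 1357 probes were called between the tRNA lines, and without replicate 1, or without either tRNA-Arg array, 0 were.

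For the 4 named probes no difference between the tRNA lines passed the test over all probes. ILMN_1688335 read 9.36 and 9.32 in tRNA-Arg cells at 0 h, and the tRNA-Glu minus tRNA-Arg difference was 0.22 ± 0.27 (95% confidence interval). ILMN_2078430 read 7.81 and 7.73, with a difference of 0.22 ± 0.28. ILMN_2088876 read 6.6 and 6.51, with a difference of 0.19 ± 0.27. Each of these intervals held 0 and so did not separate the tRNA lines. ILMN_1775235 read 5.63 and 5.82 in tRNA-Arg cells, with a difference of 0.30 ± 0.27 that did not pass over all probes (limma adjusted p = 0.516). Against mock, whose arrays both comparisons share, the tRNA-Arg differences at 0 h were 3.26 for ILMN_1688335, -3.10 for ILMN_2088876 and -2.25 for ILMN_1775235, and ILMN_2078430 was at least 4.91-fold higher. On the separate arrays of 9 h the differences were 3.39 for ILMN_1688335 and -3.45 for ILMN_2088876. There mock cells were under the floor for ILMN_2078430, and tRNA-Arg cells exceeded them at least 7.27-fold, while ILMN_1775235, under it on both tRNA-Arg arrays, was at least 3.93-fold lower.

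For the called probes as a whole, the values in the other line are given side by side, since tRNA-Arg at 0 h is compared with the same mock arrays. The 118 higher probes had a median log2 difference from mock of 0.783 in tRNA-Glu and 0.637 in tRNA-Arg cells, and the 85 lower probes had -0.733 and -0.571. The mock arrays of 9 h serve both tRNA lines, so the checks at 9 h in tRNA-Glu and tRNA-Arg cells are not independent of each other. The tRNA-Arg and mock arrays at 9 h share no array with the 0 h comparison and were read as a further check, chosen after seeing the data. There 96 of the 118 higher probes were higher in tRNA-Arg than in mock cells (81.4%, against 49.7% of all tested), and 81 of the 85 lower probes were lower (95.3%, against 50.3%). Their medians in tRNA-Arg cells at 9 h were 0.409 and -0.472. All 28 probes called in every fit that left out an array had the same direction there too. Among them the 16 higher probes had medians of 1.20 in tRNA-Glu at 0 h, 1.25 in tRNA-Glu at 9 h and 1.26 in tRNA-Arg at 9 h. The 12 lower ones had -1.02, -0.679 and -0.922. Over all tested probes these medians at 9 h were -0.00712 for tRNA-Glu and -0.00154 for tRNA-Arg. Each difference is taken from the mock line, so a feature of the mock cells and one held by both tRNA lines cannot be told apart.

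**Figure D5:**
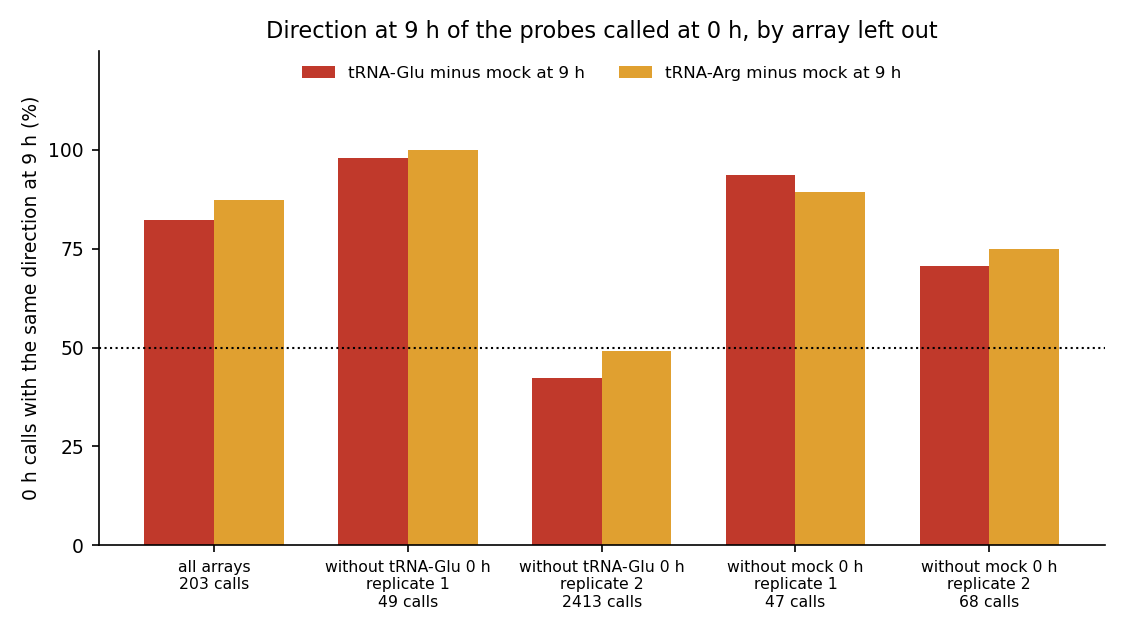
Share of the probes called at 0 h that had the same direction at 9 h (vertical axis, percent), in tRNA-Glu (red) and tRNA-Arg (yellow) cells against mock, with all arrays and without each of the 4 arrays of the comparison (horizontal axis, with the number of calls); the dotted line marks 50%. The share is 98.0% and 100% without tRNA-Glu replicate 1 and falls to 42.2% and 49.1% when replicate 1 alone stands for the line.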

How the data were processed

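RNA of 12 samples in 6 groups of 2, by line and time, was grouped by label. Analysis began from raw probe intensity as deposited, which the file headers call non-normalized. A second deposited table gives processed intensity on a linear scale, in which all arrays share nearly 1 distribution, and served as an alternative; per the submitters' processing notes lumi was used, with no version or step given. The 12 detection columns, headed by positions on 1 chip that name no sample, were not used, nor was the authors' table of stability.

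Intensities were corrected with limma's normexp (saddle-point, offset 16), taken to log2 and then quantile normalized. All 12 arrays entered 1 limma fit of group means (6 residual and 7.06 prior degrees of freedom), with Benjamini-Hochberg adjustment within each contrast at 0.05. The fit was also run on simulated signals, with independent noise of the same spread on every array for a given probe. That simulation held no array that lay apart, so it could not test the effect of such an array. With no table pairing probes with genes, the gene lists and markers of the design were not read, and the rule names up to 2 probes with the largest rise and 2 with the largest fall among calls whose groups do not overlap. "At least" folds compare the brighter line with the floor. The comparison, settings and lists were chosen with earlier results of these data known. Fits ran in R 4.3.3 with limma 3.58.1, and figures in Python 3.11.15 with matplotlib 3.10.9.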

Additional observations from a re-analysis of the deposited data

Results flagged for a closer look

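ILMN_3268697 differed between the 2 times in its tRNA-Glu minus mock difference, by limma's test of the difference itself over all probes. The difference was -1.20 (SE 0.21, limma adjusted p = 0.0204) at 0 h and 1.73 (limma adjusted p = 0.00161) at 9 h, so 0 h minus 9 h was -2.94 (SE 0.30, limma adjusted p = 0.00557). Raw intensities in tRNA-Glu cells were 136.8 and 137.9 at 0 h and 367.3 and 416.4 at 9 h, while mock cells went from 287.7 and 254.7 to 159.8 and 116.3. In tRNA-Arg cells the difference from mock was -0.59 at 0 h and 0.38 at 9 h. It was the only one of 25456 probes to pass this test. Before adjustment, 17.3% of the tested probes had p under 0.05 in it, as did 97 of the 203 probes called at 0 h. Those 203 were chosen by their 0 h difference, which enters this test.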

How the results depend on the processing

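The 4 named probes kept their direction and passed the threshold in all 58 values computed for them under alternatives, with a largest adjusted p of 0.00188; 2 of them were under the floor on some array and so absent from the strictest filter. The 4 probes were chosen as the largest differences of these same arrays, so their passing again carries no test of its own. The count of calls for tRNA-Glu against mock at 0 h, 203, was 382 without background correction, 488 with an offset of 50 and 385 with median scaling. It was 59 without a filter, 305 with probes above the floor on all 12 arrays and 15 with only the 4 arrays compared. It was 47 with only the 0 h arrays and 48 with array weights, which were equal within each group. Leaving out single arrays gave 47 to 2413. Median scaling called 329 higher and 56 lower, against 118 and 85, with a median over all tested probes of 0.0901. The count was 277 with quantile normalization within each time and 293 with the authors' processed values. At 9 h the count of 649 was 980 without background correction, 1104 with an offset of 50, 322 with median scaling, 109 without a filter, 28 with 4 arrays, 365 with the 9 h arrays and 1420 with array weights, and 48 to 179 without single arrays (179 and 117 without tRNA-Glu replicate 1 or 2, 78 and 48 without mock replicate 1 or 2). For tRNA-Glu against tRNA-Arg the count of 0 was 1 without background correction and 1 with an offset of 50, and 0 to 1357 without single arrays. The cause of these changes was not tested. The share of 0 h calls with the same direction in tRNA-Glu cells at 9 h was between 67.0% and 93.8% under the other settings that hold 9 h arrays.

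Samples were not paired by number, since deviations from group means showed no strong positive correlation between same-numbered replicates. The correlations ran from -0.256 to 0.0859 in the 15 group pairs. The lowest, -0.256, was that of mock and tRNA-Glu at 0 h, the 2 groups compared here. With the replicate block 157 probes were called at 0 h, 558 at 9 h and 0 between the tRNA lines, and 153 of the 157 were among the 203.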
